A study of Mus musculus with 9 samples.

Results

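The genes described here number 10 of the 23074 in the count table. They were chosen by name as adhesion and surface glycan genes of spermatids and Sertoli cells, with Fndc3c1 taken as a paralogue of Fndc3a. The rule sets no threshold on a measured value, although earlier results of these data were known. They comprise the immunoglobulin-type adhesion molecules Nectin2, Nectin3 and Cadm1, the junctional adhesion molecules Jam2 and Jam3, the fibronectin type III proteins Fndc3a and Fndc3c1, and the glycan-building enzymes Galnt3, B4galnt1 and Man2a2. All 10 passed the filter on low counts and were tested.

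The data are RNA-Seq libraries from whole testes without their capsule, 1 from each of 5 wild type (WT) and 4 Rfx2-/- mice aged 29 to 30 days (P30). Rfx2 encodes a transcription factor that binds the X-box motif, and the Rfx2-/- mice lack exon 7 of the gene in every tissue after germline Cre recombination. Both genotypes share a mixed background of the 3 strains C57BL/6, 129/Sv and FVB/N. The comparison asks whether these adhesion and surface glycan genes differ in RNA level when Rfx2 is missing. At this age round spermatids are present, and in WT testes some spermatids have passed beyond the round stage. In Rfx2-/- testes the paper reports that all spermatids stop before elongation and fuse into giant cells. Levels are given as CPM, which are counts brought to a common library size with scaling by the trimmed mean of M values (TMM), and every change is given as Rfx2-/- relative to WT.

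Developing spermatids lie in recesses of the Sertoli cell and are held there by the apical ectoplasmic specialization, an actin-backed adherens junction. On the spermatid side, nectin-3 and JAM-C (encoded by Jam3) bind nectin-2 and JAM-B (encoded by Jam2) on the Sertoli cell, and CADM1 joins spermatogenic cells to their neighbours. Adhesion also needs N-glycans on the germ cell surface, and Man2a2 trims N-glycans. Galnt3 starts mucin-type O-glycans and B4galnt1 builds complex gangliosides. Both are included as surface glycan genes, and a part in this adhesion is not established here. Mice without Fndc3a shed spermatids that have lost their Sertoli contacts.

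Promoter sequence is shown for 3 genes, since part of the RFX2 binding that the authors mapped lay in promoters. These 3 are the gene with the clearest difference between genotypes, and the nectin pair for contrast. Sequences are from RefSeq on GRCm38.p6, whose table held 4 of the 10 genes (Galnt3, Nectin2, Nectin3 and Fndc3c1). Each is written 5′ to 3′ on the minus strand, which is the strand of all 3 genes, and capitals mark an RFX half-site. The 250 bases before the start were searched on both strands for the half-site GGTAAC and its variants, which are GGCAAC, then AGTAAC and also AGCAAC. A full X-box was also searched for, taken as GTNRCC followed, at most 3 bases on, by 1 of these half-sites. Here N is any base and R is A or G.
Fndc3c1, chrX:106485380-106485479: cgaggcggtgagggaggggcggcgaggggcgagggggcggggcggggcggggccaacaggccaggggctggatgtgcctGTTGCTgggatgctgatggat
Nectin2, chr7:19749574-19749823: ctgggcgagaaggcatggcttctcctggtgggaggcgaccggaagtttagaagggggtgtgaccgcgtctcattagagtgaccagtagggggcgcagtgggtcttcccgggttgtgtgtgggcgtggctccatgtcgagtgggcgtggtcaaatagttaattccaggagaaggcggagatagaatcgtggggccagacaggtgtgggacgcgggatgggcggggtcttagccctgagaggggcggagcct
Nectin3, chr16:46496968-46497217: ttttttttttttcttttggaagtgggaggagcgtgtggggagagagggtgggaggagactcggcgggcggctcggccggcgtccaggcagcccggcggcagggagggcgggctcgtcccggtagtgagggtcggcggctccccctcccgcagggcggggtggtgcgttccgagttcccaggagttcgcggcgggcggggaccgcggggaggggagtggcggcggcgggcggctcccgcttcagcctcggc
The Fndc3c1 stretch is the distal 100 bases of its window. Its half-site, GTTGCT as read on this strand, begins 171 bases before the RefSeq start, but GENCODE starts the gene further upstream, and the last 22 bases printed, half-site included, lie in an annotated first exon. The windows of Nectin2, Nectin3 and Galnt3 held no half-site, and none of the 4 windows held a full X-box. The windows of Nectin2 and Nectin3 lie 660 and 1308 bases inside the 5′ ends that GENCODE gives these genes, and 201 bases of the Galnt3 window lie in an annotated exon, so sequence before the GENCODE starts of the nectins was not searched. Among all 32851 promoters of the table, 30.7% held at least 1 half-site and 1.29% held an X-box. The match is a description of the sequence and not evidence of binding. The authors measured RFX2 binding in germ cells of younger WT mice, and those data were not used here.

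The targeted gene was measured first. Rfx2 was at 559.7, 551.5, 470.9, 540.7 and 623.8 CPM in the WT libraries and at 199.2, 61.5, 151.1 and 172.7 CPM in the Rfx2-/- libraries. Every Rfx2-/- library was below every WT library, and reads from exons that the deletion leaves in place are still counted. Libraries held 13574764 to 14381047 counts in WT and 13605958 to 28800855 in Rfx2-/-. A gene was called where its adjusted p in edgeR's quasi-likelihood test was at or under 0.01 and its change over 2-fold, and 15613 genes were tested. Rfx2-/- replicate 2 stood apart from the other Rfx2-/- libraries, with lower counts for genes of long exon length, and results that rest on it are given with and without it. The median log2 change of all genes was 0.03. In bulk testis, fewer cells of a type and less RNA per cell cannot be told apart.

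Among the 10 genes, only Fndc3c1 was called, and it was lower in Rfx2-/- testes. The authors had already named Fndc3c1 among the genes deregulated in Rfx2-/- testes, so this call was not a new finding. Of all genes tested, 4.51% were called in either direction and 3.68% in the lower direction. No gene of the 10 was called higher, against 0.826% of all genes. At an adjusted p of 0.05 with no limit on the fold, Fndc3c1 again stood alone, where 7.31% of all genes were lower and 3.48% higher. Of the fitted changes 5 lay below 0 and 5 above, with a median of -0.03, whereas 46.9% of all genes lay below 0. Fndc3c1 was also the only one of the 10 whose libraries did not overlap between genotypes, compared with 9.70% of all genes separated in the lower direction and 6.16% in the higher.

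**Figure D1:**
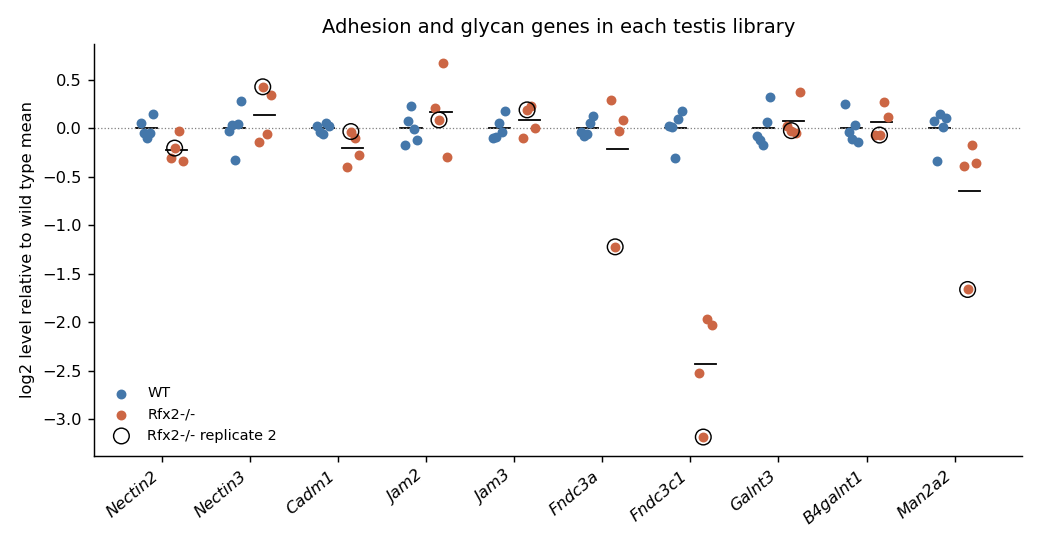
Each point is 1 testis library, plotted as its log2 level relative to the WT mean of that gene, with a bar at the mean of each genotype and a ring around Rfx2-/- replicate 2. The 4 Rfx2-/- points of Fndc3c1 lie apart from WT, and the ringed library lies far below the other 3 for Fndc3a and Man2a2.

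None of the 3 immunoglobulin-type adhesion molecules passed the test. Nectin2 (ENSMUSG00000062300, chr7:19716644-19750483), the Sertoli cell receptor for nectin-3, was at 85.3, 79.7, 76.9, 79.2 and 90.8 CPM in WT and at 66.5, 71.3, 80.7 and 65.0 CPM in Rfx2-/-. The Rfx2-/- values were on the low side, with only replicate 3 inside the WT range. Its log2 change was -0.22 (SE 0.12) with a 95% interval of -0.49 to 0.05, and the adjusted p in edgeR was 0.271. Nectin3 (ENSMUSG00000022656, chr16:46387706-46498525), the spermatid partner, was at 517.1, 541.0, 421.9, 542.6 and 642.4 CPM in WT and at 478.4, 710.2, 505.6 and 669.3 CPM in Rfx2-/-. Its genotypes overlapped, with 2 Rfx2-/- libraries above and 2 within the WT range. The log2 change was 0.15 (SE 0.17), the interval -0.23 to 0.52 and the adjusted p 0.602. Cadm1 (ENSMUSG00000032076, chr9:47530173-47857637), which binds itself and other nectin-like proteins, was at 130.8, 125.9, 123.7, 134.2 and 131.4 CPM in WT and at 97.9, 126.1, 120.8 and 106.4 CPM in Rfx2-/-. WT libraries were tightly grouped and 3 of the 4 Rfx2-/- libraries were below all of them, but the log2 change of -0.20 (SE 0.13, interval -0.47 to 0.08) did not pass the test (adjusted p = 0.325).

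The junctional adhesion molecules had fitted changes above 0 that did not pass the test. Jam2 (ENSMUSG00000053062, chr16:84774123-84825928), which encodes the Sertoli cell receptor JAM-B, was at 25.8, 30.7, 34.3, 28.9 and 26.8 CPM in WT and at 33.8, 31.0, 46.6 and 23.7 CPM in Rfx2-/-. The Rfx2-/- libraries held both the highest and the lowest value. The log2 change was 0.20 (SE 0.18, interval -0.20 to 0.60, adjusted p = 0.493). Jam3 (ENSMUSG00000031990, chr9:27097384-27155421), which encodes the spermatid protein JAM-C, was at 38.9, 39.2, 43.5, 40.8 and 47.3 CPM in WT and at 39.0, 47.7, 49.0 and 41.9 CPM in Rfx2-/-. Its genotypes overlapped, with Rfx2-/- replicates 2 and 3 above the WT range and the others within it. The log2 change was 0.08 (SE 0.13, interval -0.19 to 0.36, adjusted p = 0.702). Of the 50-base stretches of Jam3 exons, 18.8% are shared with the antisense transcript Gm48796, so some of its reads may belong to that transcript if strand was not used in counting.

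Fndc3c1 (ENSMUSG00000033737, chrX:106420041-106485401) is a paralogue of Fndc3a and was the most weakly expressed of the 10 genes. It was at 3.36, 3.33, 2.66, 3.54 and 3.74 CPM in WT and at 0.565, 0.334, 0.818 and 0.785 CPM in Rfx2-/-. Even the highest Rfx2-/- library was far below the lowest WT library. The mean fell from 3.33 ± 0.41 CPM (SD, n = 5) to 0.625 ± 0.22 CPM (SD, n = 4), which is 18.8% of WT. On the log2 scale the fitted change was -2.41 (SE 0.27, interval -2.99 to -1.82), and the adjusted p in edgeR was 7.53e-05, rank 229 of all genes tested. These levels rest on 44, 43, 40, 48 and 48 reads in WT and 17, 5, 12 and 12 reads in Rfx2-/-, so the size of the change is less well fixed than its direction. The call was kept in 15 of 15 alternative analyses, with log2 changes from -2.51 to -2.23. Of its 50-base exon stretches 15.5% also occur in Fnd3c2, Gm6325 or Gm5133, and reads mapping to more than 1 place had been discarded.

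Fndc3a (ENSMUSG00000033487, chr14:72537946-72710003), a broadly expressed FNDC3 protein, was at 309.1, 300.8, 304.2, 329.1 and 346.2 CPM in WT and at 389.1, 135.9, 310.8 and 337.0 CPM in Rfx2-/-. The Rfx2-/- libraries were in or above the WT range except replicate 2, which was lower than every other library. With all libraries the log2 change was -0.12 (SE 0.24, interval -0.65 to 0.41, adjusted p = 0.783). Without that library it was 0.12 (adjusted p = 0.516), so the sign of the change turned when 1 mouse was left out.

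The ratio of partner genes within a library does not depend on how the libraries are scaled. It can still carry a bias with exon length, which is 12047 bases for Nectin3 and 3444 bases for Nectin2. Such ratios of counts, 3 in number, were compared with 2-sided exact permutation tests over the 126 possible assignments of genotypes, adjusted over the 3 ratios. The log2 ratio of Nectin3 to Nectin2, spermatid ligand to Sertoli receptor, was 2.60, 2.76, 2.45, 2.78 and 2.82 in WT and 2.85, 3.31, 2.65 and 3.36 in Rfx2-/-. It was higher than any WT value in 3 of 4 Rfx2-/- libraries, and the means differed by 0.36 (exact p = 0.0873, adjusted p = 0.131). Without Rfx2-/- replicate 2 the means differed by 0.27 (exact permutation test, adjusted p = 0.268). The log2 ratio of Jam3 to Jam2 was 0.52 ± 0.20 (SD, n = 5) in WT and 0.43 ± 0.35 (SD, n = 4) in Rfx2-/-, with overlapping ranges (exact permutation p = 0.619, adjusted p = 0.619). The log2 ratio of Fndc3c1 to Fndc3a was -6.57 ± 0.14 (SD, n = 5) in WT and -8.78 ± 0.41 (SD, n = 4) in Rfx2-/-. Its genotypes did not overlap, and the exact permutation p of 0.00794 (adjusted p = 0.0238) is the smallest that these group sizes allow. This last ratio carries the Fndc3c1 decrease already described and is not a further result.

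**Figure D2:**
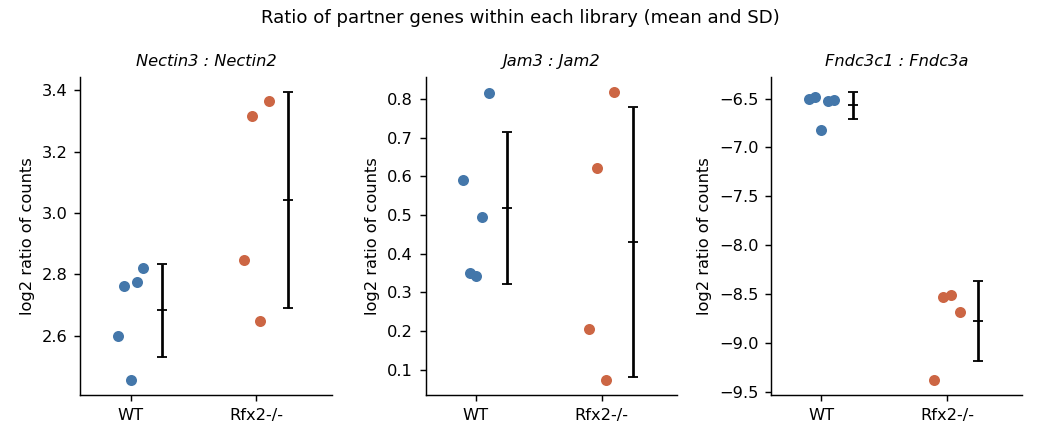
Each point is the log2 ratio of counts of 2 partner genes in 1 library, with the mean and SD of each genotype beside it and a separate vertical scale in each panel. The Fndc3c1 to Fndc3a ratio is lower in all 4 Rfx2-/- libraries, while the other 2 ratios overlap between genotypes.

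Among the glycan-building enzymes, Man2a2 (ENSMUSG00000038886, chr7:80349097-80371375), the alpha-mannosidase IIx of the Golgi, had the lowest fitted change. It was at 296.4, 222.5, 310.1, 282.7 and 302.1 CPM in WT and at 213.8, 88.7, 248.5 and 219.2 CPM in Rfx2-/-. Most Rfx2-/- libraries were below most WT libraries, replicate 2 was by far the lowest, and WT replicate 2 lay among the Rfx2-/- values. The Rfx2-/- mean was 68.1% of WT, with a log2 change of -0.55 (SE 0.25, interval -1.10 to -0.004). The unadjusted p was 0.0487 and the adjusted p in edgeR 0.179, so Man2a2 was not called. Without Rfx2-/- replicate 2 the log2 change was -0.32 (adjusted p = 0.118). A 2-fold decrease lay inside the Man2a2 interval, whereas for the other 8 genes that were not called the intervals held no 2-fold change in either direction. With the length trend of each library removed, however, the log2 change of Nectin3 was 0.56 (SE 0.31, adjusted p = 0.234), and a 2-fold increase was then within 2 SE.

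Galnt3 (ENSMUSG00000026994, chr2:66082766-66124994), whose product adds the first sugar of mucin-type O-glycans, was at 206.7, 201.7, 194.0, 228.3 and 273.3 CPM in WT and at 222.5, 215.3, 211.6 and 283.1 CPM in Rfx2-/-. Each genotype held 1 high library, and the remainder lay close together. The log2 change was 0.08 (SE 0.15, interval -0.25 to 0.41, adjusted p = 0.768). B4galnt1 (ENSMUSG00000006731, chr10:127165225-127172330), the GM2/GD2 synthase, was at 47.3, 38.6, 36.8, 40.6 and 36.02 CPM in WT and at 37.9, 37.8, 47.8 and 42.9 CPM in Rfx2-/-. Its ranges overlapped nearly in full, with a log2 change of 0.06 (SE 0.13, interval -0.23 to 0.35, adjusted p = 0.796). The exons of B4galnt1 overlap those of Slc26a10 on the opposite strand over 715 bases, and 28.4% of its 50-base stretches are shared with that gene.

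**Figure D3:**
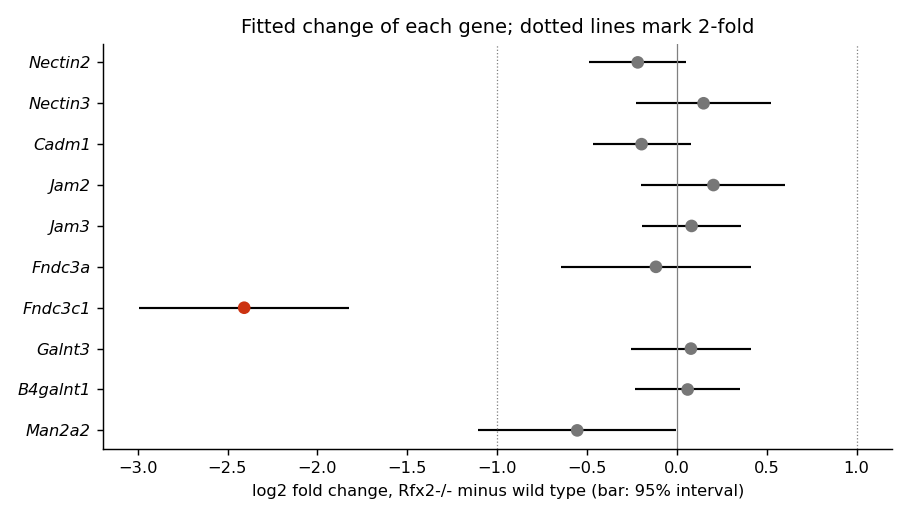
Points are the fitted log2 changes of the 10 genes, Rfx2-/- minus WT, with bars for the 95% interval and dotted lines at a 2-fold change. Only the Fndc3c1 interval lies beyond a 2-fold decrease, and the Man2a2 interval reaches from -1.10 to -0.004.

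To compare the genes with one another, levels were divided by exon length (CPM per kb). In WT testes Galnt3 stood at 56.8 ± 8.23, Fndc3a at 50.2 ± 3.04, Nectin3 at 44.2 ± 6.53 and Man2a2 at 42.0 ± 5.22 CPM per kb (SD, n = 5). Neighbours among these 4 overlapped, and their levels lay between the 86.9th and 90.5th percentile of all genes tested. Below a gap followed Nectin2 at 23.9 ± 1.64, Cadm1 at 22.5 ± 0.74 and Jam3 at 21.6 ± 1.80 CPM per kb, whose neighbours again overlapped. B4galnt1 at 16.6 ± 1.89, Jam2 at 4.85 ± 0.56 and Fndc3c1 at 0.636 ± 0.078 CPM per kb were each separated from the gene above. On this scale Nectin3 and Jam3, the spermatid sides of the 2 pairs, stood above their Sertoli cell partners Nectin2 and Jam2. In Rfx2-/- testes the same 4 genes led and the same 3 closed the order, and Jam3 stood before Nectin2 and Cadm1 with overlapping libraries. Nectin3 at 49.0 stood before Fndc3a at 46.3 CPM per kb with all 4 libraries, but without Rfx2-/- replicate 2 Fndc3a at 54.6 stood before Nectin3 at 45.7 CPM per kb, as in WT.

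**Figure D4:**
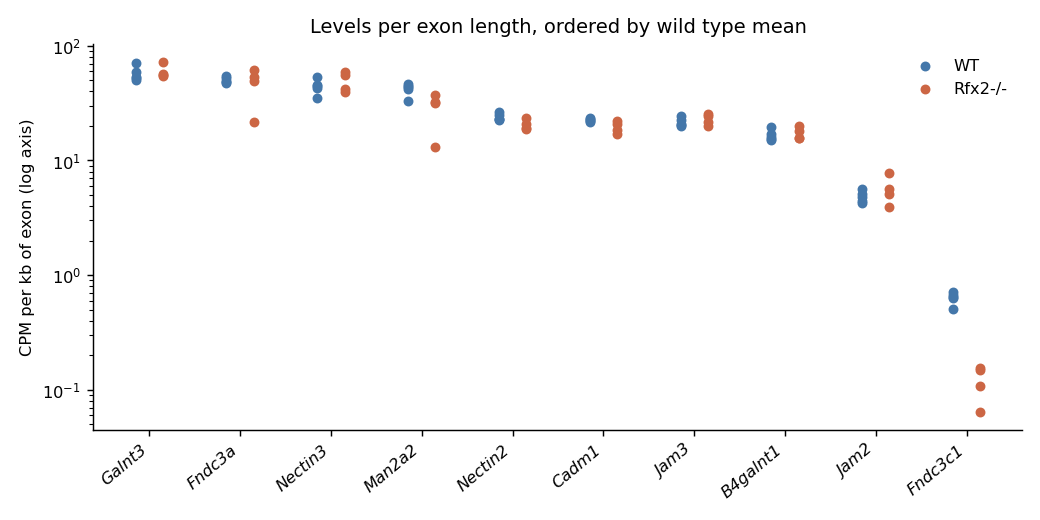
Each point is 1 library, placed by CPM per kb of exon on a log axis, with genes ordered by their WT mean. Galnt3 leads at a mean of 56.8 CPM per kb in WT, and Fndc3c1 is lowest in both genotypes.

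The difference of Rfx2-/- replicate 2 from the other 3 Rfx2-/- libraries moved with exon length. For Fndc3a, with 6333 bases of exon, the difference of this library from the others was -1.34 on the log2 scale, and for 2047 genes with exon length within a factor of 1.2 the median difference was -0.58. For Man2a2, with 6734 bases, the difference was -1.35, and the median over 1856 genes of like length was -0.63. Nectin3, with 12047 bases, went the other way, with a difference of 0.38 where the median over 394 genes of like length was -0.97. Cadm1, with 5755 bases, also differed upward, by 0.22 against a median of -0.49 over 2404 genes of like length. The Fndc3c1 difference was -0.91, where the median over 2728 genes of like length was -0.42, and the log2 change of this gene between genotypes without the library was -2.23 (adjusted p = 3.29e-05). The part of library quality in these values was not tested.

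Marker lists of the testis cell types were read beside the 10 genes, and no marker was at 0 in all libraries. All 11 markers of elongating spermatids had fitted changes below 0, with a median of -0.77, and 5 passed an adjusted p of 0.05 (Tnp1, Prm1, Prm2, Odf1 and Akap4). Their summed level was 8597 to 18278 CPM in WT and 6830 to 11015 CPM in Rfx2-/-, and the Rfx2-/- mean was 57.1% of WT. The WT minimum belonged to WT replicate 3, which also had the lowest WT level of 5 of the 10 genes (Nectin2, Nectin3, Cadm1, Fndc3c1 and Galnt3). The same library had the highest WT level of Jam2 (34.3 CPM) and Man2a2 (310.1 CPM). Of 12 Sertoli cell markers 10 lay above 0, with a median of 0.20, where 8297 of all 15613 genes tested lay above 0. The summed level of these markers was 1586 to 1959 CPM in WT and 1655 to 2596 CPM in Rfx2-/-. The 8 round spermatid markers summed to 1085 to 1709 CPM in WT and 1237 to 1579 CPM in Rfx2-/-. Summed levels overlapped between genotypes for all 9 lists examined, and outside the elongating spermatid list only the Sertoli cell gene Amh (log2 change 0.92) and the myoid cell gene Actg2 (log2 change -0.64) passed an adjusted p of 0.05. The part of cell composition in the values of the 10 genes was not tested.

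Other genes of the same families and pathways were examined from 8 lists holding 127 genes, of which 120 were tested. Lower calls were made for 6 of them and a higher call for 1, next to 3.68% and 0.826% of all genes tested. Adjusted p in edgeR for these 7 ran from 3.4e-05 to 8.65e-04. At an adjusted p of 0.05 the counts were 11 lower and 2 higher, where 7.31% and 3.48% of all genes passed. Values below are means ± SD over 5 WT and 4 Rfx2-/- libraries. The median log2 change of the 120 was -0.05, with 68 below 0.

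Among the nectins and nectin-like proteins, 7 were tested and none passed an adjusted p of 0.05 in edgeR. They include Afdn, the afadin that ties nectins to actin, with a log2 change of -0.24 (SE 0.22), and Pvr, a nectin-like partner, with 0.23 (SE 0.15). In the list of JAM relatives and blood-testis barrier proteins, 1 of 14 tested was lower at an adjusted p of 0.05. Igsf11, an adhesion molecule of the same superfamily as the JAMs, fell from 72.6 ± 7.75 to 42.1 ± 4.97 CPM (log2 change -0.79, SE 0.14). Among 10 polarity proteins linked to JAM-C, only Prkcz, an atypical protein kinase C, passed, falling from 8.93 ± 1.86 to 3.03 ± 0.41 CPM (log2 change -1.55, SE 0.20). Of the Prkcz 50-base stretches 17.3% are shared with Prkcz2.

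The list of ectoplasmic specialization genes was the largest, and 3 of 32 tested were called lower, next to 3.68% of all genes. At an adjusted p of 0.05, 5 were lower, where 7.31% of all genes passed. The list median was -0.16, with 22 of 32 below 0, whereas 46.9% of all genes lay below 0. Lmo7, an afadin-binding protein of adherens junctions, was at 5.35 to 21.1 CPM in WT and 1.505 to 2.45 CPM in Rfx2-/- (log2 change -2.90, SE 0.35). Fscn1, an actin bundler, fell from 11.4 ± 1.85 to 4.06 ± 0.70 CPM (log2 change -1.49, SE 0.19), and Lamb3, a laminin chain of the apical junction, from 10.3 ± 1.21 to 4.22 ± 0.83 CPM (log2 change -1.28, SE 0.18). Fscn3, a fascin of the testis, and Cdh2, N-cadherin, passed only the second rule in the main analysis, with log2 changes of -1.05 (SE 0.23, adjusted p = 0.0104) and -0.92 (SE 0.24, adjusted p = 0.0283).

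The sugar-building lists held genes that passed in both directions. St8sia5, a sialyltransferase of complex gangliosides, fell from 2.77 ± 0.33 to 0.542 ± 0.11 CPM (log2 change -2.35, SE 0.24, adjusted p = 3.4e-05), and B4galnt3, which builds LacdiNAc groups on glycoproteins, fell from 20.4 ± 2.94 to 5.84 ± 2.39 CPM (log2 change -1.79, SE 0.27). These were the only 2 of 14 genes to pass in the ganglioside and seminolipid list, which also holds B4galnt1 relatives outside that pathway, B4galnt3 among them. Mgat4c, of the N-acetylglucosaminyltransferase IV family, was the only higher call, rising from 5.95 ± 0.71 to 13.2 ± 1.75 CPM (log2 change 1.15, SE 0.16), and the remaining 15 of 16 N-glycan branching genes did not pass either rule. Man2a1, which shares the reaction of Man2a2, was at 121.4 CPM in WT and 121.0 CPM in Rfx2-/- (log2 change -0.004, SE 0.17). The Galnt and core O-glycan list also holds Poc1b, whose exons overlap those of Galnt4. In this list 5 of 19 tested lay below 0 and 14 above, with a median of 0.25, whereas 46.9% of all genes lay below 0. Only Galnt17 was higher (log2 change 0.94, SE 0.16) and Galnt7 lower (log2 change -0.52, SE 0.14) at an adjusted p of 0.05. Among the fibronectin type III proteins, Fndc11 alone passed the second rule, with a log2 change of -0.70 (SE 0.18, adjusted p = 0.0248), and Fndc3b, the third FNDC3 gene, had a log2 change of 0.19 (SE 0.21).

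**Figure D5:**
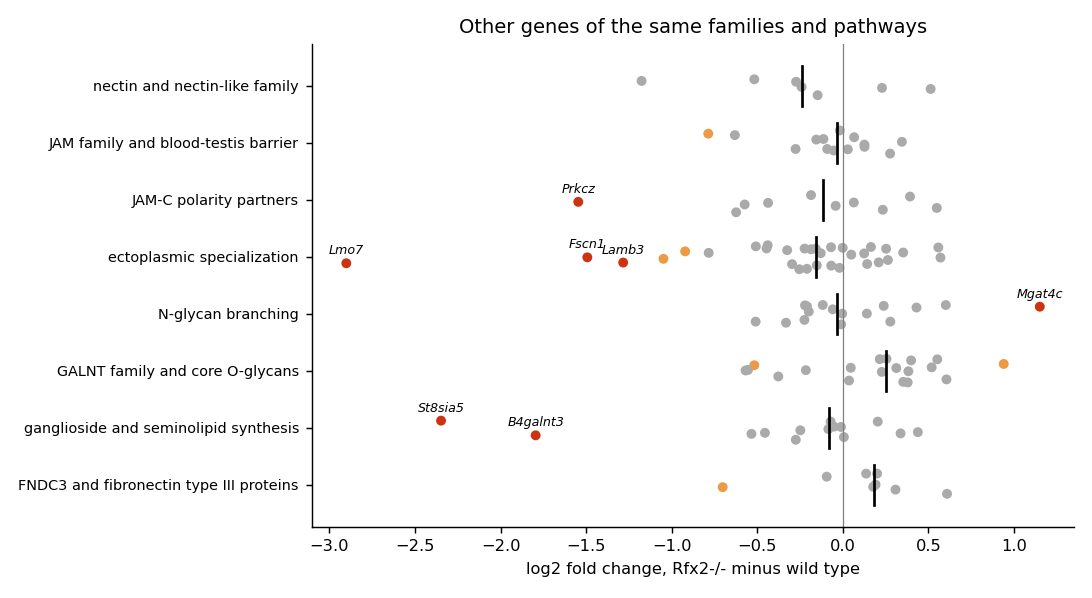
Each point is the fitted log2 change of 1 gene in the 8 lists, red where called at an adjusted p of 0.01 with over 2-fold change and orange where only at 0.05, with a bar at the list median. The named points are the 6 genes called lower and the 1 called higher.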

How the data were processed

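The authors deposited 1 table of raw counts per Ensembl gene for 9 libraries, not normalised. According to the methods, single reads from TruSeq libraries were mapped to GRCm38 (Ensembl release 70), reads with more than 1 position were discarded, and reads were counted over the merged exons of protein coding isoforms, leaving out those that hit different genes. The submitters' processing notes name CASAVA 1.8.2, STAR 2.4 and featureCounts 1.4.6. The read length is given differently in 2 places and the use of strand is not stated, so genes that overlap on opposite strands, and genes with near-identical copies, are uncertain.

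Gene symbols, exon lengths and coordinates were taken from GENCODE M21 (GRCm38), which named 96.6% of the gene IDs. Groups were taken from the genotype labels. Replicate numbers follow the order of deposition and pair no mice. Libraries held 13574764 to 28800855 counts, so that 3 reads correspond to between 0.0996 and 0.234 CPM. In R 4.3.3, edgeR 4.0.16 was used with TMM scaling, filterByExpr and the robust quasi-likelihood F test with genotype as the only factor, after testing on simulated data. P-values were adjusted by Benjamini-Hochberg over 15613 genes. A gene was called at an adjusted p at or under 0.01 with over 2-fold change, and a second rule used 0.05 with no fold limit. The SE is the log2 change divided by the square root of F, and 95% intervals use the t distribution. With 1 library per mouse, the tests set the difference between genotypes against the spread between mice within genotypes. In edgeR the estimate of that spread shares information across genes. The ratios of counts used a pseudocount of 0.5.

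The 10 genes and the other lists were chosen with earlier results of these data known. Among the deregulated genes the authors had already named Fndc3c1 and Fscn1. 1 further gene of these lists is not reported here. Of 129 listed companion symbols, 1 (Galnt20) found no match and 1 (Jam4) repeats Igsf5. All 10 genes are named, with every companion gene called and up to 10 more by smallest adjusted p under 0.05. Companion genes outside this rule (Afdn, Pvr, Man2a1 and Fndc3b) are named as the nearest relatives or partners of the 10 and were added after their values were seen, as were the 7 cell type markers named for passing an adjusted p of 0.05. Poc1b and Galnt4 are named without values, for their overlapping exons. Alternatives were DESeq2 size factors, total counts, DESeq2 1.42.0, limma 3.58.1 voom with sample quality weights, no filter, removal of each library's length trend, and leaving out each library.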

Additional observations from a re-analysis of the deposited data

Results flagged for a closer look

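In 26 groups of libraries examined, 2 held a library whose gap to the others was above Dixon's 95% critical value, where chance gives about 1.3. Rfx2-/- replicate 4 had 283.1 CPM of Galnt3, while the other 3 Rfx2-/- libraries had 211.6 to 222.5 CPM. WT replicate 3 had a log2 ratio of Fndc3c1 to Fndc3a of -6.82, while the other 4 WT libraries had -6.52 to -6.48. The causes were not tested.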

How the results depend on the processing

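Across 15 alternatives each, Fndc3c1 was called in all (adjusted p from 1.20e-12 to 3.81e-04), and none of the other 9 genes reached an adjusted p of 0.05. The lowest, 0.0909, was Man2a2 with the length trend removed. Direction changed for Fndc3a, whose log2 change was 0.011 with total counts and 0.048 with voom (-0.25 to 0.12 when each library was left out), and for Jam3, at -0.0091 with the length trend removed. The same setting moved Nectin3 from 0.15 to 0.56. The Jam3 to Jam2 difference ranged from -0.22 to 0.031 when each library was left out, and was above 0 without Rfx2-/- replicate 3. The Nectin3 to Nectin2 difference ranged from 0.25 to 0.49, and only without Rfx2-/- replicate 3 did it pass (0.49, adjusted p = 0.0268, exact permutation test). The Fndc3c1 to Fndc3a difference ranged from -2.30 to -2.01, with adjusted p of 0.0268 to 0.0857, since 8 libraries allow a larger smallest p. Total counts moved the median log2 change of all genes from 0.03 to 0.16 and that of the 10 genes from -0.03 to 0.10. Genes called higher numbered 198 with DESeq2 (129 in the main analysis). At an adjusted p of 0.05, voom gave 1803 lower (1142) and 17 companion genes lower (11), and genes higher (544) numbered 1183 with total counts, 963 with DESeq2, 949 with voom, and 276 (without WT replicate 5) to 1393 (without Rfx2-/- replicate 1). Companion genes called higher (1) numbered 2 with total counts, with the length trend removed and without Rfx2-/- replicate 2 (1 to 2 when each library was left out). At an adjusted p of 0.05 they numbered 6 with total counts, DESeq2 and voom (2 in the main analysis), 4 with the length trend removed, and 2 to 8 when each library was left out, with 8 without Rfx2-/- replicate 1 and 5 without Rfx2-/- replicate 2. The Lmo7 call was lost with voom, while Fscn3 gained a call in 6 of 15 alternatives (DESeq2, voom, no filter, length trend removed, without WT replicate 3 and without Rfx2-/- replicate 2) and Galnt17 in 3 (total counts, length trend removed and without Rfx2-/- replicate 2). Cdh2, Galnt7 and Fndc11 missed an adjusted p of 0.05 in 5, 6 and 6 of the 15 alternatives. No paired analysis was possible because the labels give no replicate numbers that tie WT to Rfx2-/- mice. The causes of these shifts were not tested. Depth limits Fndc3c1 most, since a Rfx2-/- library held as few as 5 of its reads.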
